A study of Homo sapiens with 12 samples.

Results

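The genes described here encode the subunits of the oxidative phosphorylation complexes, from both the nuclear and the mitochondrial genome, measured in the human lung fibroblast line IMR90. They were taken by symbol: the NDUFA, NDUFB, NDUFC, NDUFS and NDUFV subunits of complex I, SDHA to SDHD, the UQCR genes and CYC1, COX4 to COX8 genes, the ATP5F1, ATP5M and ATP5P genes, and the 13 mitochondrial protein genes. The symbols matched 94 of the 16383 genes listed, and 90 members, 77 nuclear-encoded and 13 mitochondrial-encoded, had a mean normalized count of at least 10 over the 12 libraries. The 4 matched genes under that minimum were COX6A2, listed at 0 in every library, COX4I2 with 9 reads in all, NDUFA6 with 1 read, and NDUFA3 with 47 reads, 43 of them in ruxolitinib library A124. Just inside the minimum stood COX6B2 with a mean of 13.8, and just outside NDUFA3 with 3.59. The 77 nuclear-encoded members comprised 33 of complex I, 4 of complex II, 9 of complex III, 14 of complex IV (NDUFA4 counted there) and 17 of complex V.

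RNA captured by its poly(A) tail was sequenced from 4 groups of 3 libraries. Proliferating cells (Prolif) had no treatment named in the labels. The other groups had received 20 Gy of ionizing radiation over 10 min to make them senescent and were collected on day 11. On days 4, 6, 8 and 10 after irradiation they were given DMSO (Sen_DMSO), the CDK4/6 inhibitor palbociclib at 2 µM (Sen_Palbo), or the JAK1/2 inhibitor ruxolitinib at 2 µM (Sen_Ruxo). Irradiation, time in culture and arrest cannot be told apart in the first comparison, and nothing in the labels says that the libraries of a group came from separate cultures, so p-values measure only the spread between these libraries. All 12 fibroblast markers checked (COL1A1, VIM, FN1 and others) were detected, with a summed normalized count of 664806 to 670892 in Sen_DMSO and 1217140 to 1291800 in Prolif. Libraries are named by the number in their column, and held 14106799 to 21762412 recovered reads over the listed genes. In bulk RNA, fewer mitochondria or transcripts per cell and a different mixture of cells cannot be told apart.

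Oxidative phosphorylation passes electrons from NADH (complex I) or succinate (complex II) through ubiquinone, complex III and cytochrome c to complex IV, which reduces oxygen, and complex V makes ATP from the proton gradient that complexes I, III and IV build. Only complex II is made wholly from nuclear genes. The mitochondrial genome is transcribed as long polycistronic RNAs, from which tRNAs are cut out to leave the mRNAs, so that the steady level of each mitochondrial mRNA depends on its processing and decay as well as on transcription. Nuclear subunit genes have separate promoters, and NRF1, GABP (an ETS-family factor) and YY1 are known regulators of many of them.

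The mitochondrial mRNAs were captured through tails that complete part of their own stop codons. In the reference genome (GRCh38), 6 of the 13 coding genes (ND1, ND2, COX3, ND3, ND4 and CYTB) are annotated to stop 1 or 2 bases into the last codon. The tail supplies the rest. The annotated stop codon of ATP6 is whole, but its last base, chrM:9207, is also the first base of COX3. The 3′ ends of 2 such genes are set below beside that of ND6, which lies on the other strand, has a whole stop codon and is known to carry a short tail or none; these ends are shown because ND6 changed most of the mitochondrial genes after irradiation. Sequences are 5′ to 3′ on the coding strand, and the capitals mark the bases of the stop codon present in the DNA.
CYTB, chrM:15863-15887, plus strand: gaaaacaaaatactcaaatgggccT
COX3, chrM:9966-9990, plus strand: gtctccatctattgatgagggtctT
ND6, chrM:14149-14172, minus strand: attgagattgctcgggggaatAGG

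ATP8 and ATP6 are read from 1 bicistronic mRNA, and so are ND4L and ND4, so that their counts are not independent. The coding regions of ATP8 and ATP6 overlap by 46 bases, given below with the start codon of ATP6 in capitals, and those of ND4L and ND4 by 7 bases at chrM:10760-10766. How reads in such overlaps, or reads shared with nuclear copies of mitochondrial DNA, were assigned is not given in the sources used here.
ATP8 and ATP6 overlap, chrM:8527-8572, plus strand: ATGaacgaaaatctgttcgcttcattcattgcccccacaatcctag

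The 77 nuclear-encoded members matched 63 promoter sequences in the RefSeq table (GRCh38.p14), each a window of 300 bases around the start. A match to GCGCANGCG, a core of the NRF1 motif, stood on either strand in 19 of these 63 (30.2%), against 8.05% of all 27305 promoters. The ETS motif CCGGAAGT matched 10 (15.9% against 4.44%), the YY1 core AAGATGGCG matched 6 (9.52% against 1.85%), and 30 (47.6% against 13.1%) held at least 1 of the 3. The 120 bases before the RefSeq start are printed for 3 members that fell and 2 that rose after irradiation, as examples of members that moved in opposite directions. Capitals mark motif matches.
NDUFA4 (fell), chr7:10940154-10940273, minus strand: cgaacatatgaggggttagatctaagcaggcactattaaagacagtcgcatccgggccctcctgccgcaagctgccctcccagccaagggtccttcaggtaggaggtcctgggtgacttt
UQCRC1 (fell), chr3:48609647-48609766, minus strand: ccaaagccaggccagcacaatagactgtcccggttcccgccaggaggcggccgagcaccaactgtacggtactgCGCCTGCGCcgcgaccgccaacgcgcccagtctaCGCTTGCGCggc
NDUFA9 (fell), chr12:4648994-4649113, plus strand: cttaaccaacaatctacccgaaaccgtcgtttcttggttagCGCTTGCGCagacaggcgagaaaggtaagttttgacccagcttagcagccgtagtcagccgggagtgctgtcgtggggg
UQCR11 (rose), chr19:1605463-1605582, minus strand: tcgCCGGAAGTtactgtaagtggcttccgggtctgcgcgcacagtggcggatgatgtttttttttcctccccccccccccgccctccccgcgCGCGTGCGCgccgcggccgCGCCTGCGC
NDUFA1 (rose), chrX:119871712-119871831, plus strand: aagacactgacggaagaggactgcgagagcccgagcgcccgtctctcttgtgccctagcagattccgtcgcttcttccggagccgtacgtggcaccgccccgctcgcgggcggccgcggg
The printed stretch of UQCRC1 holds 2 matches to the NRF1 core and that of NDUFA9 holds 1, that of UQCR11 holds 2 NRF1 matches and 1 ETS match, and those of NDUFA4 and NDUFA1 hold none of the motifs searched. These matches are a description of the letters in the window.

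Mitochondrial-encoded mRNA took a larger share of all listed normalized counts in irradiated than in proliferating cells, and the largest share under palbociclib. The share was 2.35%, 2.16% and 2.27% in the Prolif libraries, 2.64%, 2.75% and 2.86% in Sen_DMSO, 3.40%, 3.53% and 3.48% in Sen_Palbo, and 3.05%, 2.85% and 3.04% in Sen_Ruxo. Every Sen_DMSO library lay above every Prolif library and below every Sen_Palbo library, while the lowest Sen_Ruxo library (2.85%) lay just under the highest of Sen_DMSO (2.86%). The mean shares were 2.26% ± 0.0978, 2.75% ± 0.112, 3.47% ± 0.0647 and 2.98% ± 0.112 (SD, n = 3). The nuclear-encoded members together took 0.575% ± 0.0429 in Prolif, 0.592% ± 0.0118 in Sen_DMSO, 0.605% ± 0.0697 in Sen_Palbo and 0.634% ± 0.00470 in Sen_Ruxo, with overlap between Prolif and each of the DMSO and palbociclib groups.

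A measure that dividing a library by 1 factor does not move is the mean log2 level of the 13 mitochondrial-encoded members minus that of the 77 nuclear-encoded members. It was 4.54, 4.19 and 4.50 in Prolif, 4.63, 4.63 and 4.74 in Sen_DMSO, 5.03, 4.73 and 4.94 in Sen_Palbo and 4.67, 4.60 and 4.67 in Sen_Ruxo. All Sen_DMSO values lay above all Prolif values by this measure, whereas palbociclib library A120 (4.73) fell within the Sen_DMSO range. The group means differed by 0.26 for Sen_DMSO against Prolif, 0.23 for Sen_Palbo against Sen_DMSO, -0.02 for Sen_Ruxo against Sen_DMSO and 0.25 for Sen_Palbo against Sen_Ruxo. Without A126, the lowest Prolif library, the first was 0.15, and without A120 the second and the last were 0.32 and 0.33. Quantile normalization, which does not use 1 factor per library, turned both palbociclib differences: against DMSO the value became -0.13 and against ruxolitinib -0.039, while that for Sen_DMSO against Prolif became 0.41. A126 and A120 had the most counts on short transcripts: in non-member genes under 1000 bases, the median level against each gene's own mean was 0.16 higher in A126 and 0.29 higher in A120 on the log2 scale, against -0.11 to 0.08 in the other 10 libraries. The median transcript length was 763 bases for the nuclear-encoded members and 3412 bases for all tested genes. Calls from a fit with each library's trend on transcript length and GC content removed are given below. That fit was not applied to this measure, and the part of transcript length alone was not tested.

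**Figure D1:**
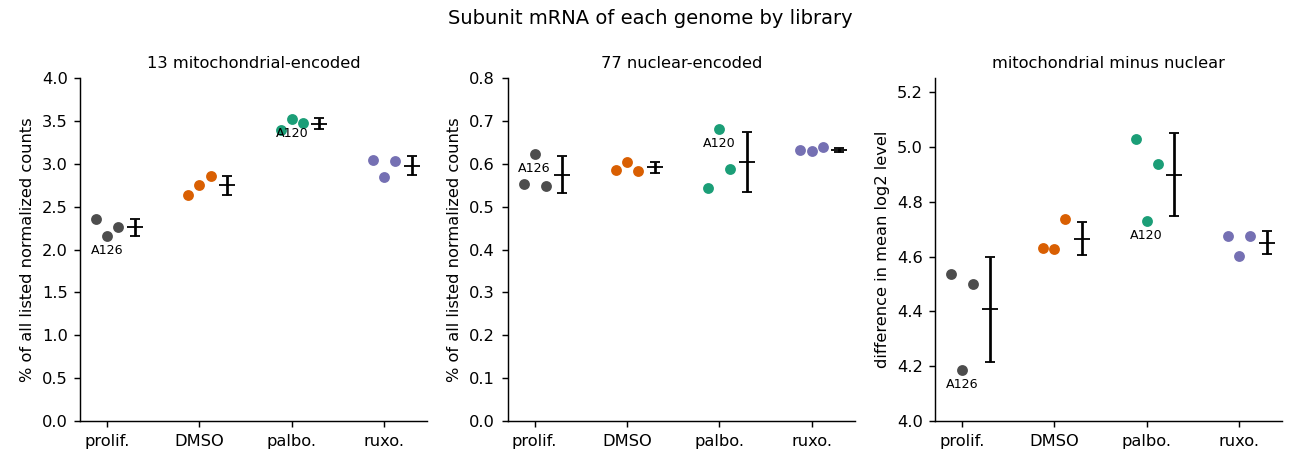
Subunit mRNA of each genome in the 12 libraries: the percentage of all listed normalized counts taken by the 13 mitochondrial-encoded members (left) and the 77 nuclear-encoded members (middle), and the difference between their mean log2 levels (right, axis from 4). Points are libraries, and bars are the mean ± SD of 3; the mitochondrial share separates Prolif, Sen_DMSO and Sen_Palbo, while A126 and A120 are lowest in their groups on the right.

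Per kilobase of coding length, COX2 and COX1 stood highest among the mitochondrial genes in every group. In Prolif, COX2 had 85338 ± 1543 normalized counts per kb and COX1 78851 ± 4458 (SD, n = 3), and their library ranges did not overlap; in the other groups their ranges did. COX3 followed at 59708 ± 1177 per kb. ND6 was lowest in Prolif, at 11016 ± 578 per kb, followed by ND3 at 13902 ± 857 and ND5 at 15850 ± 2344. The median mitochondrial gene had 30717 counts per kb in Prolif and 28146 in Sen_DMSO, against 1192 and 1028 for the median nuclear-encoded member, on the length of each gene's Ensembl canonical transcript. Among nuclear-encoded members ATP5F1B, the catalytic beta subunit of ATP synthase, was highest per kb in all 4 groups (5873 ± 194 in Prolif and 5870 ± 218 in Sen_DMSO); it was chosen for naming after its values were seen.

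In irradiated against proliferating cells, 6 of the 7 mitochondrial genes of complex I and CYTB rose, while both of complex V and 2 of the 3 of complex IV fell on the deposited scale, and the nuclear-encoded members were lower or not called in all but 5 cases. Calls are from limma on log2(normalized count + 1) with 4 group means, Benjamini-Hochberg adjusted p under 0.05 over 11242 genes; by this rule 72.4% of all tested genes were called (33% higher, 39.3% lower). Among the 13 mitochondrial-encoded members 7 were called higher and 4 lower, with a median log2 fold change of 0.22. Among the 77 nuclear-encoded members 5 were called higher and 32 lower, with a median of -0.14, against -0.05 for all tested genes. The share of nuclear-encoded members called lower (41.6%) was near the background for lower calls, and the share called higher (6.49%) was below that for higher calls.

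ND6, a membrane-arm subunit of complex I and the only protein gene on the light strand, had 6099, 5757 and 5494 normalized counts in Prolif and 10369, 10743 and 9947 in Sen_DMSO. All Sen_DMSO libraries lay above all Prolif libraries, and the log2 fold change was 0.84 ± 0.07 (SE; limma adjusted p = 1.1e-08), or 1.79-fold. ND5, which lies beside it in the genome, had 31119, 23815 and 31225 in Prolif and 45071, 48143 and 46903 in Sen_DMSO, again without overlap, as for 75.1% of all tested genes. Its log2 fold change was 0.71 ± 0.11 (SE; limma adjusted p = 2.8e-05). The strand setting of the counting is not given. Reads from the other strand over ND6 therefore cannot be told apart from those of its own mRNA, in this or any later comparison. ND1 to ND4 rose by smaller amounts.

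ND1, from the start of the heavy-strand protein genes, had 23703, 21745 and 23997 in Prolif and 24934, 26998 and 28790 in Sen_DMSO, so the groups did not overlap (log2 fold change 0.22 ± 0.06, limma adjusted p = 0.0055). ND3 rose by 0.33, ND2 by 0.31 and ND4 by 0.24 on the log2 scale (limma adjusted p = 0.0036, 0.00019 and 0.0069). ND4L, whose 3 Prolif values of 10572, 6724 and 11024 spread widely, was not called (log2 fold change 0.29, limma adjusted p = 0.078). CYTB, the only mitochondrial gene of complex III, had 25374, 22516 and 25980 in Prolif and 26697, 29694 and 29835 in Sen_DMSO, a log2 fold change of 0.22 ± 0.07 (SE; limma adjusted p = 0.0088) without overlap.

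COX3, a core subunit of complex IV, went the other way on this scale. It had 46666, 47797 and 45970 normalized counts in Prolif and 36054, 36346 and 38732 in Sen_DMSO, and the groups did not overlap (log2 fold change -0.34 ± 0.07, limma adjusted p = 0.00028). COX2, which carries the first copper centre, fell by 0.19 on the log2 scale (limma adjusted p = 0.017), and COX1, which holds the oxygen-reducing centre, had -0.12 with an adjusted p of 0.084 and was not called. ATP6 and ATP8, the complex V subunits on the bicistronic mRNA, had log2 fold changes of -0.21 and -0.19 (limma adjusted p = 0.0033 and 0.012), with overlap between the groups for ATP8. The call for COX2 was lost without Prolif library A125 or DMSO library A116, and the call for ATP8 without A125 or DMSO library A117, so that 2 mitochondrial genes were called lower without A125.

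These directions depended on the scale for the genes that fell, and not for those that rose. When every library was scaled to the same total, the median of all tested genes moved by 0.23, no mitochondrial gene was called lower, and 8 were called higher. The 7 genes called higher, ND1 to ND6 without ND4L and CYTB, were called higher under all 5 scalings tried. Ratios within a library, which dividing that library by 1 factor does not move, separated the groups as deposited: COX1 to ND1 was 5.33, 5.23 and 5.20 in Prolif and 4.21, 4.15 and 4.08 in Sen_DMSO, and COX3 to ND2 was 2.61, 2.76 and 2.54 against 1.74, 1.64 and 1.66. Quantile normalization does move such ratios: under it the log2 fold change of COX1 was 0.57 and that of ND1 0.39, so the COX1 to ND1 difference turned. These ratios were chosen after their values were seen and have no test. ND6 to CYTB was 0.240, 0.256 and 0.211 in Prolif and 0.388, 0.362 and 0.333 in Sen_DMSO.

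Sequence shared with annotated nuclear genes, chiefly copies of mitochondrial DNA, was found in 11 of the 13 mitochondrial genes, among those that fell and those that rose. Of all 50-base stretches, 49.5% in COX1, 46.7% in ATP6, 43.6% in ND2, 30.6% in COX3, 29.0% in COX2, 22.1% in ND1 and 8.23% in ATP8 also occur in an annotated nuclear gene such as MTCO1P12 (98.6% identical to COX1) and MTATP6P1 (98.5% identical to ATP6). In ND3, ND4, ND4L, ND5 and CYTB the share was at most 4.76%, and in ND6 it was 17.9%. The part of these copies in the ratios was not tested.

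**Figure D2:**
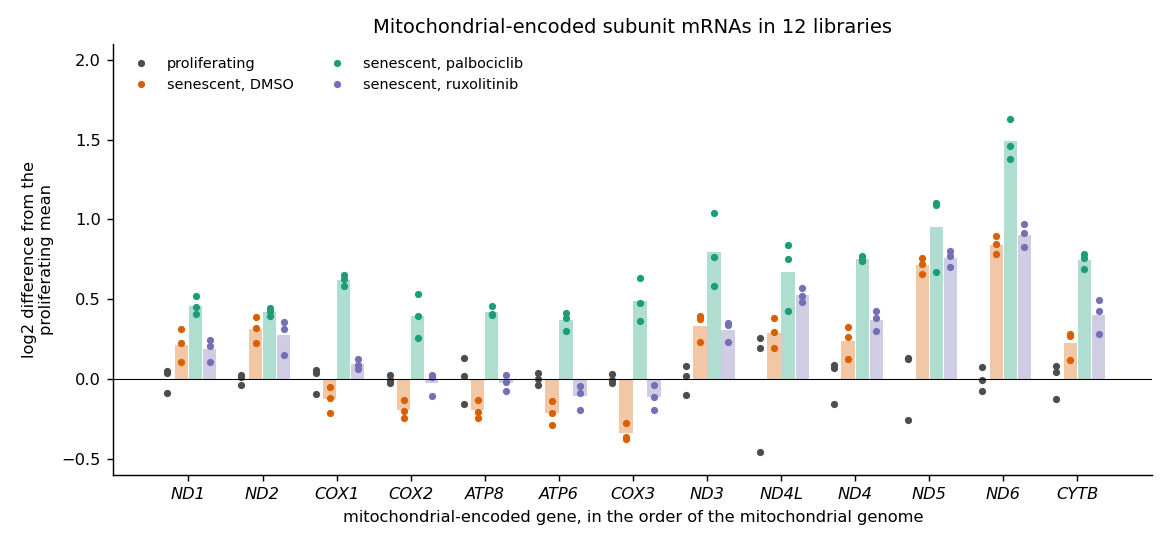
The 13 mitochondrial-encoded mRNAs in the order of the mitochondrial genome, as the log2 difference from the mean of the 3 Prolif libraries on the deposited scale. Points are the 12 libraries and bars are the means of 3; in Sen_DMSO the bars from COX1 to COX3 lie below 0 and those from ND3 onward above it, and ND6 is highest in every irradiated group.

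Among nuclear-encoded members the rises after irradiation were few. COX7A1, the heart and muscle isoform of complex IV subunit 7A, had 60.2, 62.1 and 59.0 normalized counts in Prolif and 198, 212 and 207 in Sen_DMSO. Its groups lay far apart, with a log2 fold change of 1.75 ± 0.14 (SE; limma adjusted p = 1.6e-08), or 3.36-fold. Of 6 striated muscle markers 1, TNNT2, had a mean of at least 10. Their summed count was 24.8 to 31.1 in Prolif and 20.8 to 23.8 in Sen_DMSO, and TNNT2 averaged 24.8 and 12.4. The markers ACTA1 (1.75 and 4.43), CKM (0 and 2.28), MYH2 (0.370 and 2.16) and TNNI3 (0 and 1.11) averaged higher in Sen_DMSO. These were at low counts, and MYH7 was at 0 in both groups. COX7A2, the form of most tissues, was more abundant per kb, at 3249 against 178 for COX7A1 in Prolif and 2936 against 605 in Sen_DMSO, and was not called (limma adjusted p = 0.093). COX7A2L, which helps join complexes III and IV, fell by 0.36 (limma adjusted p = 0.00045), though it was not called at the same total.

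UQCR11, a small subunit of complex III, had 930, 1064 and 814 in Prolif and 1308, 1234 and 1274 in Sen_DMSO, without overlap (log2 fold change 0.45 ± 0.11, limma adjusted p = 0.0013). NDUFA1, an accessory subunit of the membrane arm of complex I, went from 660, 633 and 562 to 771, 758 and 661, and the groups only just separated (0.24 ± 0.09, limma adjusted p = 0.023). Leaving out Prolif library A127 or DMSO libraries A116 or A117 ended the NDUFA1 call. SDHC, a membrane anchor of complex II, rose by 0.18 (limma adjusted p = 0.025), a call lost without A125, A126 or A117; without A117 3 members were called higher. The fifth was COX6B2, a low member outside the naming rule and named for completeness, with at most 4.44 normalized counts in Prolif and 16.8 to 24.9 in Sen_DMSO. Its log2 fold change of 2.35 was the largest among nuclear-encoded members, at counts near the minimum. All 5 were called higher under all 5 scalings.

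NDUFA4, long assigned to complex I and now counted as a subunit of complex IV, had 2296, 2626 and 2403 normalized counts in Prolif and 1455, 1816 and 1606 in Sen_DMSO. The groups did not overlap, and NDUFA4 fell by 0.59 ± 0.09 on the log2 scale (limma adjusted p = 1.5e-05). UQCRC1, a core protein of complex III, had 3360, 3749 and 3519 in Prolif and 2342, 2371 and 2348 in Sen_DMSO (-0.59 ± 0.07, limma adjusted p = 2.4e-06). NDUFA9, which binds NADPH at the joint of the complex I arms, had 1277, 1242 and 1231 in Prolif and 846, 823 and 836 in Sen_DMSO (-0.58 ± 0.07, limma adjusted p = 1.1e-06). Both were lower in every Sen_DMSO library than in any Prolif library.

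The naming rule took 3 more falls, of complex V: ATP5MC2, a gene for the c-ring of the rotor, by 0.54, ATP5PO, part of the peripheral stalk, by 0.49, and ATP5F1C, the central stalk, by 0.47 on the log2 scale (limma adjusted p = 7.6e-05, 5.0e-05 and 8.5e-06). NDUFB6 of complex I and CYC1 of complex III, named after their values were seen, followed them closely (-0.47 and -0.46). For ATP5PO, 61.2% of its 50-base stretches occur in another annotated gene, so its count is uncertain. ATP5MC1 and ATP5MC3 encode the same mature c subunit as ATP5MC2 and were not called (-0.12 and -0.10, limma adjusted p = 0.26 and 0.32). In complex II, SDHA, the flavoprotein that oxidizes succinate, had 2002, 2323 and 2124 in Prolif and 1566, 1563 and 1567 in Sen_DMSO, without overlap (-0.45 ± 0.08, limma adjusted p = 7.2e-05). As with ATP5PO, 73.6% of the 50-base stretches of SDHA are shared. SDHB fell by 0.21 and SDHD by 0.23 (limma adjusted p = 0.023 and 0.0024), neither of them called at the same total, and the SDHB call was lost without A126, A116 or A117. COX4I1 and COX6A1, the forms of these complex IV subunits in most tissues, had -0.07 and -0.09 and were not called, and their partner isoforms COX4I2 and COX6A2 were under the minimum.

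By complex, 14 of 33 complex I members were called lower and 1 higher, 3 of 4 in complex II lower and 1 higher, 4 of 9 in complex III lower and 1 higher, 5 of 14 in complex IV lower and 2 higher, and 6 of 17 in complex V lower and 0 higher. The split between higher and lower moved with the scale. At the same upper quartile 15 nuclear-encoded members were called higher and 16 lower, where 42.5% and 30.1% of all tested genes were called. At the same total 22 were called higher and 13 lower, with a median of 0.09, where 46.9% and 26.4% of all tested genes were called. The same 13 members were called lower under all 5 scalings: ATP5F1A, ATP5F1C, ATP5MC2, ATP5PO, CYC1, NDUFA4, NDUFA5, NDUFA9, NDUFB4, NDUFB6, NDUFS1, SDHA and UQCRC1. Without A120 and A126, an alternative added after seeing the data, 14 members were called higher and 33 lower, against 34.6% and 40.9% of all tested genes. Non-member genes with transcripts under 1000 bases had a median log2 fold change of -0.11 in this comparison.

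**Figure D3:**
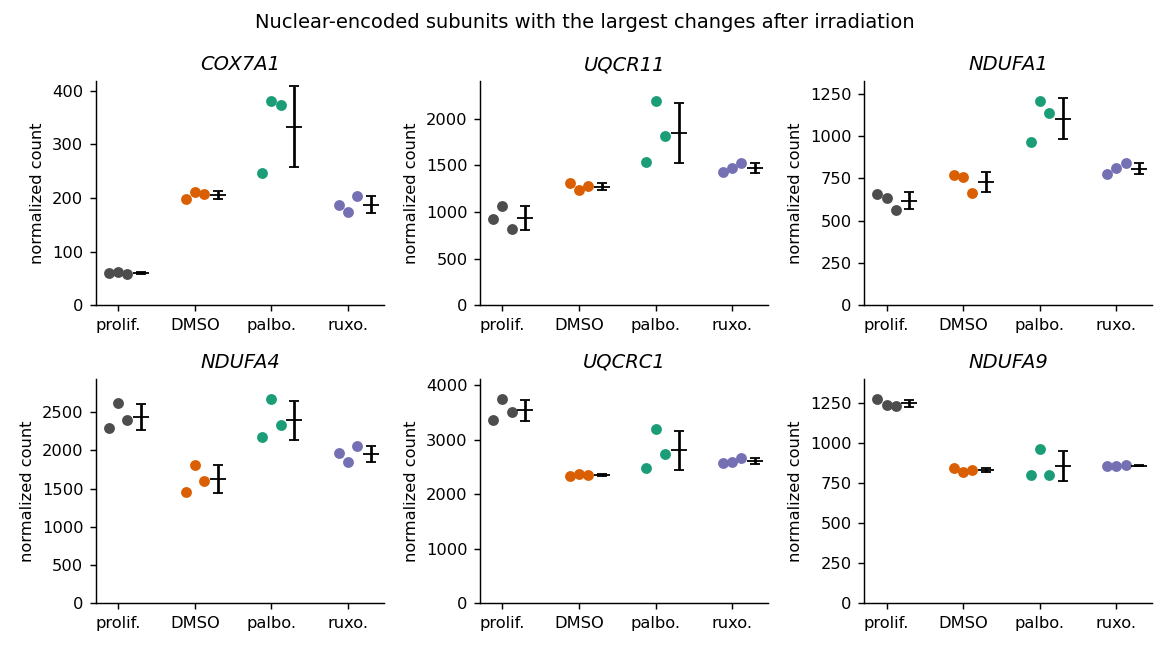
Normalized counts of the 3 nuclear-encoded members with the largest rises and the 3 with the largest falls after irradiation, in 12 libraries (axes start at 0). Points are libraries and bars are the mean ± SD of 3; COX7A1 is near 60 in Prolif and near 200 in Sen_DMSO, whereas NDUFA9 is near 1250 in Prolif and 836 in DMSO library A118.

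In palbociclib-treated against DMSO-treated senescent cells, 64 of the 90 subunit mRNAs were called higher on the deposited scale, 0 were called lower and 26 were not called. Of all tested genes 48.3% were called (26% higher, 22.3% lower). Of the 13 mitochondrial-encoded members 11 were called higher and 0 lower, with a median log2 fold change of 0.52. Of the 77 nuclear-encoded members 53 were called higher and 0 lower (1 lower at an unadjusted p under 0.05; edgeR and DESeq2 also called 0 lower), with a median of 0.27 against 0.02 for all tested genes. Non-member genes with transcripts under 1000 bases also ran high in this comparison, with a median of 0.20, 38.2% called higher and 12.5% lower; transcripts of 4000 bases or more had a median of -0.06.

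COX3 rose most among the mitochondrial genes, from 36054, 36346 and 38732 in Sen_DMSO to 60231, 72688 and 65146 in Sen_Palbo. The groups did not overlap, as for 54.8% of all tested genes (29.1% with palbociclib higher), and the log2 fold change was 0.83 ± 0.07 (SE; limma adjusted p = 9.4e-08), or 1.78-fold. COX1 rose from 105030, 112067 and 117557 to 187445, 191001 and 181742 (0.74 ± 0.06, limma adjusted p = 1.5e-07), also without overlap. ND6 rose from 10369, 10743 and 9947 to 15032, 17899 and 15903 (0.65 ± 0.07, limma adjusted p = 1.1e-06). ATP8, COX2 and ATP6 followed with log2 fold changes of 0.62, 0.59 and 0.58 (limma adjusted p = 1.3e-06, 4.4e-06 and 8.8e-07).

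CYTB and ND4 each rose by 0.52 and ND3 by 0.46 (limma adjusted p = 2.1e-05, 2.9e-05 and 0.00063). ND1 rose by 0.24 (limma adjusted p = 0.0048), and ND4L by 0.38 (limma adjusted p = 0.038), a call lost when any of A116, A117, A118, A119, A121 or A124 was left out. ND5 and ND2 were not called: ND5 had 61235, 45277 and 60762 in Sen_Palbo, with library A120 inside the Sen_DMSO range (0.24, limma adjusted p = 0.083), and ND2 had 24221, 23919 and 23345 (0.11, limma adjusted p = 0.13). Without A120, ND5 was called as well, which made 12.

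Within libraries, COX1 to ND1 was 6.10, 5.77 and 5.76 in Sen_Palbo, above the 4.08 to 4.21 of Sen_DMSO and above the 5.20 to 5.33 of Prolif, and COX3 to ND2 was 2.49, 3.04 and 2.79 against 1.64 to 1.74. ND5 to CYTB, at 1.47, 1.14 and 1.44, was below the 1.57 to 1.69 of Sen_DMSO, and ND6 to CYTB overlapped between these groups. At the same total, which moved the median of all tested genes by -0.23, 9 mitochondrial genes were still called higher, without ND1 and ND4L. Under quantile normalization, which gives every library 1 shared set of values, 4 were called higher (ATP6, ATP8, COX1 and ND6) and 3 lower (ND1, ND2 and ND5). Of all tested genes 24.2% and 20.2% were called higher and lower under that scaling. ATP6, ATP8, COX1 and ND6 were called higher under all 5 scalings.

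COX7A1 had the largest rise of the nuclear-encoded members in this comparison, from 198, 212 and 207 in Sen_DMSO to 246, 380 and 373 in Sen_Palbo. The groups did not overlap (log2 fold change 0.67 ± 0.14, limma adjusted p = 0.0011). The 6 striated muscle markers summed to 37.3 to 49.8 under palbociclib against 20.8 to 23.8, and most of that was TNNT2; their part was not tested. NDUFA1 rose from 771, 758 and 661 to 966, 1204 and 1137 (0.59 ± 0.09, limma adjusted p = 6.1e-05), again without overlap.

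NDUFA4 rose from 1455, 1816 and 1606 to 2172, 2674 and 2340, which spans the Prolif range (0.56 ± 0.09, limma adjusted p = 8.3e-05). ATP5PD, a subunit of the peripheral stalk, rose by 0.53, UQCR11 by 0.52 and ATP5F1E, the epsilon subunit of the central stalk, by 0.51 (limma adjusted p = 0.00037, 0.00089 and 0.0015). Library A120 was the highest of the 3 Sen_Palbo libraries for each of these 6 genes. COX7A2L rose by 0.42 and COX7A2 by 0.24 (limma adjusted p = 0.00032 and 0.015), COX4I1 by 0.36 and COX6A1 by 0.39 (0.0091 and 0.00092), and ATP5MC1 by 0.35 and ATP5MC3 by 0.27 (0.0082 and 0.022). ATP5MC2 was not called (0.18, limma adjusted p = 0.12). In complex II, SDHC rose by 0.37 and SDHD by 0.23 (limma adjusted p = 0.00041 and 0.0057), while SDHA (0.07) and SDHB (0.18) were not called. The calls for ATP5MC3 and COX7A2 were lost without A118 or A120. COX7A2L kept its call at the same total, whereas those for COX7A2, COX4I1, COX6A1, ATP5MC1, ATP5MC3, SDHC and SDHD did not.

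NDUFA9, like ATP5MC2, SDHA and SDHB, had fallen after irradiation and was not called with palbociclib: it had 801, 964 and 805 in Sen_Palbo, overlapping the 823 to 846 of Sen_DMSO (0.03, limma adjusted p = 0.72). By complex, 19 of 33 complex I members, 2 of 4 in complex II, 7 of 9 in complex III, 11 of 14 in complex IV and 14 of 17 in complex V were called higher.

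Both increases depended on the scaling, the mitochondrial one under quantile normalization as given above. Without A120 35 nuclear-encoded members were called higher and 1 (NDUFV2) lower, and without A120 and A126 47 were, with a median of 0.18; the 13 mitochondrial genes kept a median of 0.52 in the latter fit. At the same total 8 nuclear-encoded members were called higher and 6 lower, with a median of 0.04, where 8.36% of all tested genes were called higher and 46.0% lower. Those 8 were called under all 5 scalings and are ATP5F1E, ATP5ME, ATP5PD, COX7A1, COX7A2L, NDUFA1, NDUFA4 and UQCR11. With each library's trend on transcript length and GC content removed, also added after seeing the data, 45 were called higher and 1 lower. Of all tested genes 29.8% and 24.3% were called higher and lower in that fit.

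**Figure D4:**
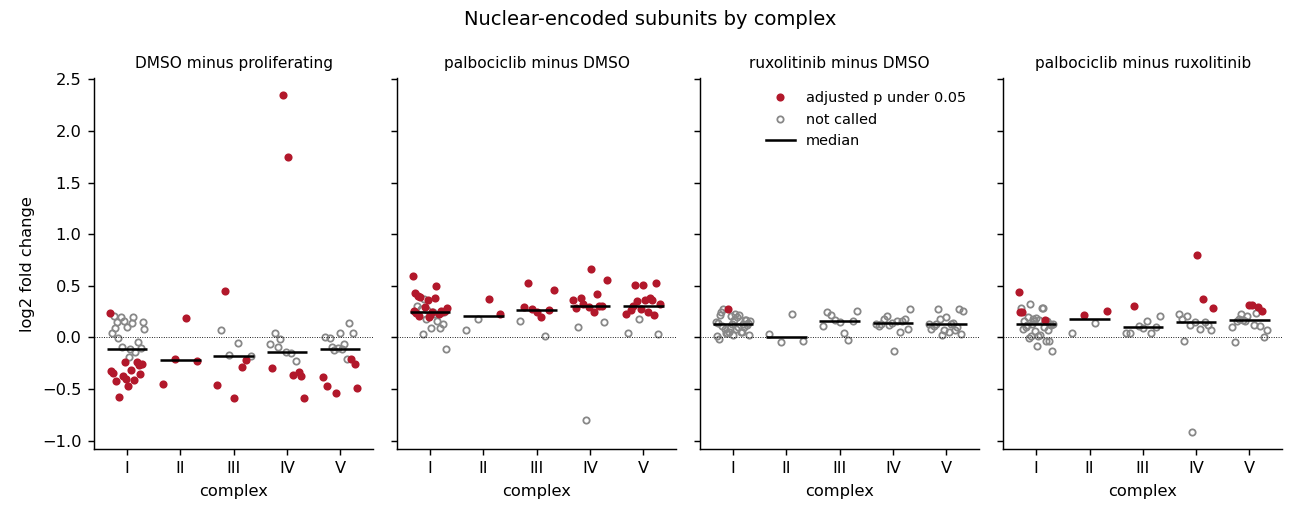
Log2 fold changes of the 77 nuclear-encoded members by complex in the 4 comparisons. Points are genes, filled where limma's adjusted p is under 0.05, and black lines are medians; more filled points lie below 0 in the first panel (32 of 37), and all 53 lie above 0 in the second.

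**Figure D5:**
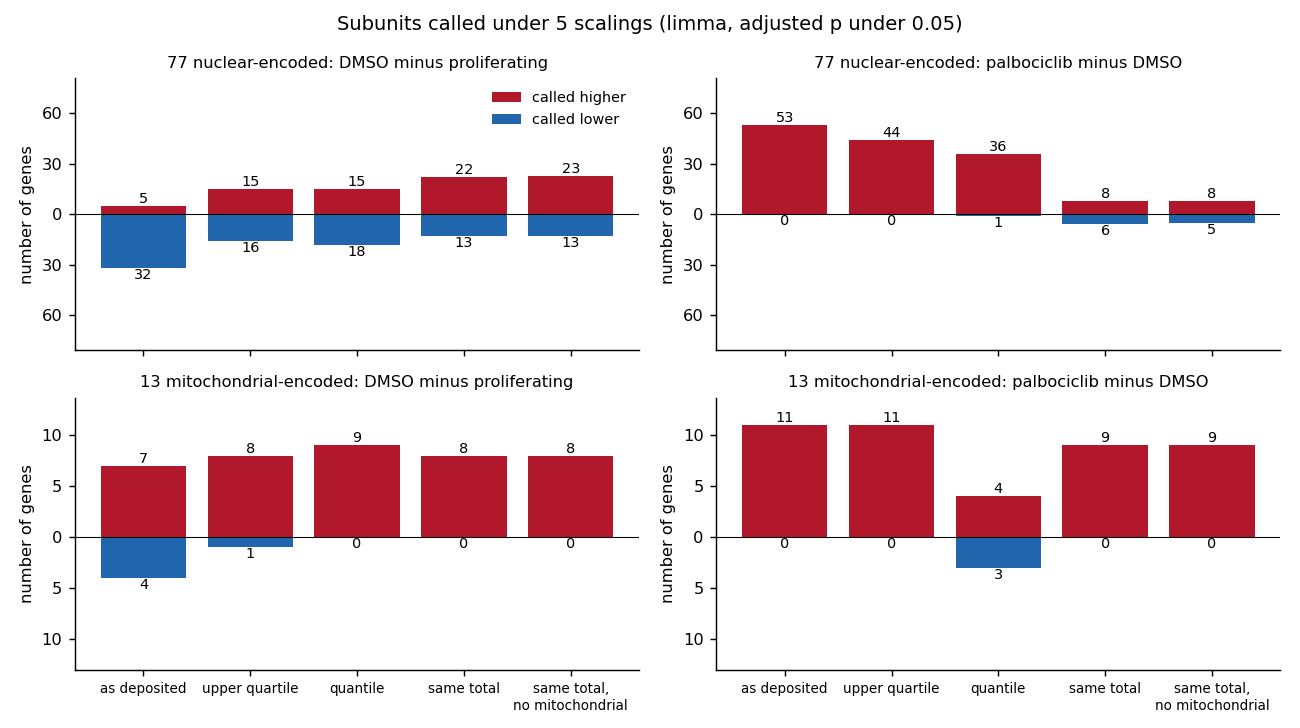
Number of members called higher (up) and lower (down) under 5 scalings, for 77 nuclear-encoded members (top) and 13 mitochondrial-encoded members (bottom), after irradiation (left) and with palbociclib (right). The nuclear-encoded split moves from 5 and 32 on the deposited scale to 22 and 13 at the same total after irradiation, while 7 to 9 mitochondrial genes are called higher under every scaling there. The shares of all tested genes called higher and lower move from 33% and 39.3% to 46.9% and 26.4%.

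Ruxolitinib-treated senescent cells differed little from DMSO-treated ones by this test. Of all tested genes 4.52% were called (1.1% higher, 3.42% lower). NDUFB10, an accessory subunit of the membrane arm of complex I, was the only member called. It had 959, 966 and 1030 normalized counts in Sen_DMSO and 1160, 1214 and 1210 in Sen_Ruxo, without overlap (log2 fold change 0.28 ± 0.07, limma adjusted p = 0.044). That call was lost when any of 8 libraries (A116 to A118, A121 to A125) was left out. Without A120 5 nuclear-encoded members were called higher, and 2.12% of all tested genes.

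None of the 13 mitochondrial-encoded members was called by limma, although 5 were higher and 0 lower at an unadjusted p under 0.05; edgeR called 1 (COX1) and DESeq2 2 (COX1 and COX3). COX1 had 132249, 126823 and 129256 in Sen_Ruxo, above every Sen_DMSO library (0.22 ± 0.06, limma adjusted p = 0.065), and COX3 had 45567, 40962 and 43344, also above every Sen_DMSO library (0.22 ± 0.07, limma adjusted p = 0.074). COX1 to ND1 was 4.83, 5.08 and 4.85, between the Sen_DMSO and the Sen_Palbo ranges and below the Prolif range, with no overlap. ND6, at 10241, 10884 and 11338, overlapped Sen_DMSO.

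Of the 77 nuclear-encoded members, 72 had an estimate above 0, as did 5510 of the 11242 tested genes. At an unadjusted p under 0.05, 18 of the 77 were higher and 0 lower. In 43 of them all 3 Sen_Ruxo libraries lay above all 3 Sen_DMSO libraries, against 14.9% of all tested genes. The median was 0.13, against 0.00 for all tested genes and 0.07 for non-member genes with transcripts under 1000 bases. Fitted on these 2 groups alone, 34 nuclear-encoded and 7 mitochondrial-encoded members were called higher, and without A120 and A126 23 and 6. Of all tested genes 7.499% were called higher and 8.877% lower in the first of these fits. In the second these shares were 5.05% and 6.73%. At the same total no member was called. COX7A1, at 187, 173 and 203, had an estimate of -0.13 and was not called (limma adjusted p = 0.72).

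Palbociclib against ruxolitinib, both at 2 µM with the same schedule, tests the difference between the inhibitors directly. Of all tested genes 40.4% were called (22.8% higher, 17.6% lower). Of the 13 mitochondrial-encoded members 10 were higher under palbociclib and 0 lower, with a median of 0.42. COX3 had 60231 to 72688 under palbociclib and 40962 to 45567 under ruxolitinib (log2 difference 0.61 ± 0.07, limma adjusted p = 4.0e-06), ND6 15032 to 17899 against 10241 to 11338 (0.59 ± 0.07, limma adjusted p = 4.5e-06), and COX1 181742 to 191001 against 126823 to 132249 (0.53 ± 0.06, limma adjusted p = 8.2e-06). None of these ranges overlapped, as for 51.8% of all tested genes. ND2, ND4L and ND5 were not called. At the same total 8 were higher, and ATP8 and ND6 were called under all 5 scalings.

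Of the 77 nuclear-encoded members 14 (18.2%) were higher under palbociclib and 0 lower, with a median of 0.15. That share was below the 22.8% of all tested genes called higher. Non-member genes with transcripts under 1000 bases also had a median of 0.15, and 25.2% were called higher. At an unadjusted p under 0.05 1 member was lower, and edgeR called 1 lower (COX6B2) and DESeq2 0. COX7A1 differed most among called members, at 246 to 380 against 173 to 203 (0.80 ± 0.14, limma adjusted p = 0.00034). NDUFA1 followed at 966 to 1204 against 774 to 838 (0.44 ± 0.09, limma adjusted p = 0.00095). The low member COX6B2 had the largest estimate in size, -0.92, and was not called by limma. COX7A2L was 0.37 higher, ATP5ME and ATP5MF, small membrane subunits of ATP synthase, 0.31 each, and UQCR11 0.31 (limma adjusted p = 0.0012, 0.029, 0.016 and 0.031). The calls for ATP5ME, ATP5MF and UQCR11 were lost without A120 or A123, that for ATP5ME also without A124, that for ATP5MF without A121, and that for UQCR11 without A121, A122 or A124. The count moved with single libraries: 41 members were called higher without A119, 7 without A120 or without A123, and 9 without A122 or without A124. Of all tested genes 23.9%, 21.3%, 18.8%, 18.3% and 18.7% were called higher in these fits, in the order named. At the same total 2 members were called higher (COX7A1 and NDUFA1) and 6 lower, against 7.53% and 40.3% of all tested genes. The comparisons share libraries, in particular the 3 of Sen_DMSO, so they are not independent of each other.

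Other genes of the pathway were taken from 5 lists, to be read beside the shares of all tested genes: 33% higher and 39.3% lower after irradiation, 26% and 22.3% with palbociclib, and at the same total 46.9% and 26.4%, and 8.36% and 46.0%. Of 33 tested genes for the maintenance and expression of mitochondrial DNA, 18 were lower (54.5%) and 1 higher (3.03%) after irradiation, with a median of -0.21, but at the same total 9 were lower and 9 higher. TFAM, which packages mitochondrial DNA and starts its transcription, had 890 ± 50.9 normalized counts in Prolif, 529 ± 21.1 in Sen_DMSO, 395 ± 9.54 in Sen_Palbo and 529 ± 35.6 in Sen_Ruxo (SD, n = 3). It fell by 0.75 after irradiation and by a further 0.42 with palbociclib (limma adjusted p = 9.5e-08 and 0.00017), both also called at the same total. POLRMT, the mitochondrial RNA polymerase, was not called (0.13 and 0.13). LRPPRC, which stabilizes mitochondrial mRNAs, fell by 0.25 after irradiation (limma adjusted p = 0.0017), not called at the same total. MTERF3 and ANGEL2 had the largest falls after irradiation (-0.81 and -0.80), and MTERF2 the only rise (0.26), a call lost without any of 6 libraries (A116, A117, A122, A125, A126 and A127).

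With palbociclib 5 of the 33 rose (15.2%) and 9 fell (27.3%), and at the same total 2 rose and 18 fell. FASTK, whose short form acts on ND6 mRNA in mitochondria, rose by 0.54 (limma adjusted p = 3.4e-05) and REXO2, an RNase for short RNAs, by 0.45. TWNK, the mitochondrial DNA helicase, fell by 0.56. PNPT1, the polynucleotide phosphorylase that degrades mitochondrial RNA, had 824 ± 79.7 in Sen_DMSO, 535 ± 20.0 in Sen_Palbo and 478 ± 12.5 in Sen_Ruxo. It was 0.62 lower with palbociclib and 0.78 lower with ruxolitinib (limma adjusted p = 8.2e-06 and 4.4e-06), and was the only gene of this list called under ruxolitinib.

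Of 11 tested regulators of mitochondrial biogenesis 7 were lower (63.6%) and 2 higher (18.2%) after irradiation, and 5 and 2 at the same total. NRF1 went from 468 ± 30.2 to 247 ± 17.6 (-0.92, limma adjusted p = 1.3e-06) and GABPB1, the partner subunit of the GABP factor, from 786 ± 31.8 to 404 ± 31.2 (-0.96, limma adjusted p = 7.1e-09). MYC went from 1163 ± 60.7 to 719 ± 45.2 (-0.69, limma adjusted p = 7.1e-07) and was 0.41 higher with palbociclib than with DMSO (limma adjusted p = 0.00046), not called at the same total. ESRRA, an orphan receptor that drives subunit genes, rose by 0.35 after irradiation (limma adjusted p = 0.0057). PPARGC1A, the coactivator of many of these factors, averaged 15.6 or fewer counts in every group and was not tested, and PPARGC1B averaged 17.3 or fewer.

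Of 42 tested assembly factors 18 were lower (42.9%) and 7 higher (16.7%) after irradiation, and 8 higher (19.0%) and 5 lower (11.9%) with palbociclib; at the same total these were 9 lower and 15 higher, and 1 higher and 14 lower. ECSIT and CMC2 fell most (-1.15 and -1.10) and COX14 and UQCC1 rose most (1.14 and 0.87) after irradiation; COX14 acts in the assembly of COX1 and UQCC1 in that of CYTB. SURF1, a factor for complex IV assembly, rose by 0.65 with palbociclib (limma adjusted p = 0.00044), NDUFAF2 rose by 0.31, and NDUFAF6 and TMEM70 fell by 0.44 and 0.28. The call for NDUFAF2 was lost without A117 or A120, and that for TMEM70 without A117, A118 or A119. Of 74 mitochondrial ribosomal protein genes 49 were lower (66.2%) and 2 higher (2.70%) after irradiation (median -0.36), and 15 higher (20.3%) and 6 lower (8.11%) with palbociclib (median 0.10). At the same total 27 were lower and 11 higher after irradiation, and 0 higher and 21 lower with palbociclib. MRPL11 fell by 1.13 and MRPL49 rose by 0.31 after irradiation, and MRPS14 was the only one of them called with ruxolitinib (0.36, limma adjusted p = 0.022), a call lost without A116, A118, A122 or A124.

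Of 22 electron carriers, enzymes of coenzyme Q synthesis and complex-associated proteins, 6 were higher (27.3%) and 8 lower (36.4%) after irradiation, and 10 higher (45.5%) and 2 lower (9.09%) with palbociclib; at the same total these were 11 and 4, and 1 and 6. COQ2 and COQ3, enzymes of coenzyme Q synthesis, fell by 1.45 and 1.53 after irradiation, and ETFB, part of the flavoprotein that brings in electrons from fatty acid oxidation, rose by 0.74. CYCS, the cytochrome c that links complexes III and IV, had 3572 ± 105 in Prolif, 3002 ± 120 in Sen_DMSO and 3513 ± 346 in Sen_Palbo (-0.25 and 0.22, limma adjusted p = 0.0027 and 0.011), neither called at the same total, and the second lost without A118. NDUFA4L2, a paralog of NDUFA4, stood at 25.2 ± 2.92 in Sen_DMSO and 61.3 ± 8.41 in Sen_Palbo (1.25, limma adjusted p = 7.7e-05).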

How the data were processed

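The authors deposited 1 table of normalized counts, a signal per gene and library. Per the submitters' processing notes the tools were Trimmomatic 0.38.1, HISAT2 2.2.1, featureCounts 2.0.3 and DESeq2 2.11.40.8 with hg38; annotation, strand and multi-mapping settings are not given in the sources used here. All 160380 deposited values above 0 were whole multiples of 1 factor per library (tolerance 0.01), so whole reads were recovered. The table ended at Entrez gene 140467, and 6 RefSeq genes that match the symbols, NDUFS7 among them, were not analysed here. Genes with a mean of at least 10 (11242) were fitted with limma 3.58.1 (R 4.3.3, trend, pseudocount 1) over 4 group means; fold changes are on the log2(value + 1) scale. Depth ranged from 14106799 to 21762412 reads. edgeR 4.0.16 and DESeq2 1.42.0 on the recovered reads were alternatives. limma was tested on simulated data: for palbociclib against DMSO with 11242 genes it recovered 20% of changes of 1.2-fold and 80% of 1.5-fold. Named genes were all mitochondrial members, isoform and SDH members, the 6 largest called nuclear changes each way with a mean of at least 100, the 2 largest each way per related list, and 10 regulators. Promoter motifs were shortened to at most 9 letters after counts for longer forms had been seen. Members and lists were chosen with earlier results of these data known. The values of 1 called member are not reported here.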

Additional observations from a re-analysis of the deposited data

Results flagged for a closer look

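The effects of palbociclib and ruxolitinib, each against the same DMSO libraries, differed for the 23 members given here by limma's direct comparison of both inhibitors. In that comparison 40.4% of all tested genes were called (22.8% higher, 17.6% lower). Called higher were 26.7% of all 90 members, 18.2% of the nuclear-encoded and 76.9% of the mitochondrial-encoded ones. As palbociclib minus ruxolitinib on the log2 scale, the mitochondrial-encoded members were COX3 (0.6059), ND6 (0.5864), COX1 (0.5285), ND3 (0.4894), ATP6 (0.4762), ATP8 (0.446), COX2 (0.417), ND4 (0.3857), CYTB (0.3419) and ND1 (0.2723). In complex I the nuclear-encoded members were NDUFA1 (0.4438), NDUFA12 (0.2439) and NDUFA10 (0.2426). In complexes II and III they were SDHD (0.2562), SDHB (0.2216) and UQCR11 (0.3086). In complex IV they were COX7A1 (0.7999), COX7A2L (0.3697) and NDUFA4 (0.2875). In complex V they were ATP5ME (0.3128), ATP5MF (0.3109), ATP5MK (0.299) and ATP5PD (0.2544). All 23 were higher with palbociclib, and ATP8, ND6, COX7A1 and NDUFA1 were called higher under all 5 scalings.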

How the results depend on the processing

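No paired analysis was possible because the columns of the table carry no replicate number. Scaling moved most. In DMSO against Prolif, nuclear-encoded calls higher and lower were 22 and 13 with equal totals, and 23 and 13 with equal totals over non-mitochondrial genes. They were 15 and 16 at the same upper quartile, and 15 and 18 under quantile normalization. The shares of all tested genes were 46.9% and 26.4%, 47.4% and 26.1%, 42.5% and 30.1%, and 37.1% and 34.3%. Mitochondrial calls lower were 0, 0, 1 and 0. In palbociclib against DMSO, nuclear-encoded calls were 8 and 6 at the same total and 8 and 5 without mitochondrial genes. The shares of all tested genes there were 8.36% and 46.0%, and 8.75% and 44.7%. Under quantile normalization 1 nuclear-encoded member was lower, 4 mitochondrial ones higher and 3 lower, against 24.2% higher and 20.2% lower of all tested genes. For ruxolitinib against DMSO, nuclear-encoded calls higher were 0 at either total and 2 under quantile normalization, and 1 mitochondrial member was called at the upper quartile. Of all tested genes 1.70% were called higher under quantile normalization and 1.38% at the upper quartile. For palbociclib against ruxolitinib, nuclear-encoded calls were 2 and 6, 2 and 5, 8 and 1, and 8 and 2 in the order given for DMSO against Prolif. The shares of all tested genes were 7.53% and 40.3%, 7.79% and 39.2%, 17.8% and 21.1%, and 17.6% and 17.2%. Mitochondrial calls under quantile normalization were 2 and 1. The mitochondrial minus nuclear difference under quantile normalization was 0.41, -0.13 and -0.039 (0.26, 0.23 and 0.25 as reported) for DMSO against Prolif, palbociclib against DMSO and palbociclib against ruxolitinib. Gene values changed sign and were called for COX1 after irradiation (0.57), ND1 (-0.20), ND2 (-0.21) and ND5 (-0.30) with palbociclib against DMSO and ND5 against ruxolitinib (-0.31) under quantile normalization, and for REXO2 (0.21 and 0.22) and MRPS33 (0.18 and 0.19) after irradiation at the 2 totals; the cause was not tested.

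Other tools and filters moved fewer. DESeq2 called 8 nuclear-encoded members higher in DMSO against Prolif, against 35.8% of all tested genes. In ruxolitinib against DMSO it called 2 nuclear-encoded and 2 mitochondrial members higher, against 1.77%. DESeq2 and edgeR each called 2 mitochondrial members lower in DMSO against Prolif, against 35.4% and 36.0% of all tested genes. With ruxolitinib edgeR called 1 mitochondrial member higher, against 1.36%. It called 1 nuclear-encoded member lower in palbociclib against ruxolitinib, against 19.9%. Without the filter on low values, ruxolitinib against DMSO gave 0 and palbociclib against ruxolitinib 6 nuclear-encoded calls higher. Of the 16383 genes in that fit 0.623% and 14.1% were called higher. Without a trend limma gave 0 and 9, against 0.756% and 21.1% of all tested genes. It gave 1 lower in palbociclib against DMSO and 1 against ruxolitinib, against 21.5% and 17.1%. A pseudocount of 5 gave 1 lower in palbociclib against ruxolitinib, against 17.9%. Fits on the 2 groups alone called 34 and 7 members higher with ruxolitinib, against 7.499% of all tested genes.

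Without A120 and A126, calls higher were 14 (nuclear-encoded, DMSO against Prolif), 23 and 6 (ruxolitinib, both genomes), and nuclear-encoded calls lower 1 and 3 in palbociclib against DMSO and against ruxolitinib. With the length and GC trend removed they were 10, 7 and 2, and 1 and 3, and 2 mitochondrial members were lower after irradiation. Of all tested genes, 34.6% were called higher after irradiation and 5.05% with ruxolitinib in the first alternative. In the second these were 35.6% and 3.30%. With palbociclib, 22.6% were called lower against DMSO and 18.3% against ruxolitinib in the first, and 24.3% and 20.2% in the second. Both alternatives were added after seeing the data.

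Leaving out 1 library at a time gave, for nuclear-encoded calls higher, 3 to 7, 35 to 65, 0 to 5 and 7 to 41 in the 4 comparisons as ordered above; for mitochondrial calls lower after irradiation 2 to 5, mitochondrial calls higher with ruxolitinib 0 to 2, and nuclear-encoded calls lower 0 to 1 in both palbociclib comparisons. The shares of all tested genes called higher in these fits were 31.1% to 34.4%, 21.6% to 27.5%, 0.338% to 2.12% and 18.3% to 24.8%. Of 7818 gene values under all alternatives 7025 kept direction and side of the threshold. Reads per mitochondrial gene were at least 4516, so depth limits mainly COX6B2 and the members under the minimum.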

Other observations

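The complex I subunits NDUFA3 and NDUFA6 were listed at or near 0 although their complex I partners were abundant: NDUFA6 had 1 read in 12 libraries and NDUFA3 had reads in 4 libraries, 43 of its 47 in A124. The ratio of ND4L to ND4, read from the same mRNA, was 0.123 in Prolif library A126 and 0.121 in palbociclib library A120, against 0.150 to 0.173 in the other 10 libraries, and the ratio of ATP8 to ATP6 was lowest in A126 (0.193). Epithelial markers summed to 3620 to 4239 in Sen_Palbo and 1803 to 2054 in Sen_DMSO, most of it KRT18, while SFTPC stayed at or under 0.888; the part of this change in the palbociclib results was not tested. The 6 immune markers summed to 544 to 570 in Prolif, 1223 to 1306 in Sen_DMSO, 697 to 804 in Sen_Palbo and 1068 to 1144 in Sen_Ruxo, most of it CD68, while LST1 and TYROBP were at 0 in all 12 libraries. The 5 endothelial markers summed to 1681 to 1949, 2389 to 2554, 3501 to 4380 and 2247 to 2254 in the same order. Most of each sum was TEK. After irradiation PECAM1 (2.07 to 10.7), VWF (5.04 to 19.1) and KDR (0.346 to 9.20) also averaged higher, with CDH5 at or under 2.71. In Sen_Palbo PECAM1 (5.45) and KDR (2.14) averaged lower than in Sen_DMSO, and VWF averaged 21.2. The part of either change in the results was not tested.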
